A study of Mus musculus with 14 samples.

Results

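The comparison described here was that of the left ventricle of wild-type (WT) mice after transverse aortic constriction (TAC) with the left ventricle of WT mice after Sham surgery. Its members were taken by their sample labels. They were the 4 WT-Sham libraries and the WT-TAC libraries of replicates 2 and 3, which made 6 of the 14 libraries used from the series. The remaining 8 libraries came from HCN4F mice, 4 after Sham surgery and 4 after TAC. HCN4F mice carry a knock-in that exchanges a single residue of HCN4, the main pacemaker channel of the sinoatrial node. All animals were male and were operated on at 10 to 12 weeks of age, and RNA was taken 5 weeks later from whole left ventricular tissue. The WT animals are given without any engineered allele, and WT-Sham animals went through the operation without the constriction. The constriction was calibrated against a needle, and no pressure gradient of a single animal was used here. The design text of the series calls the samples biological replicates. With 2 WT-TAC libraries the p-values rest on a spread that was estimated over the libraries of all 4 groups.

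TAC narrows the aorta, so that the left ventricle has to eject against a raised pressure. Loaded cardiomyocytes are known to grow, to return to transcripts of the fetal heart such as skeletal α-actin, β-myosin heavy chain and the natriuretic peptides, and to rely less on fatty acid oxidation. Stretch and growth factors also switch on immediate early genes, which encode short-lived transcription factors, and fibroblasts answer with matrix genes.

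The WT-Sham libraries held 27213735 to 30535766 counts, and the WT-TAC libraries held 23761762 (replicate 2) and 35210939 (replicate 3). Mitochondrial transcripts took 19.6% to 23.1% of the counts in WT-Sham and 18.4% and 20.0% in WT-TAC. Values per library are given below in the order of the replicate numbers as CPM, which are counts scaled to a library size of 1000000 after TMM normalization. A gene was called where its log2 fold change exceeded 1 in either direction and edgeR's quasi-likelihood test, adjusted over all genes, gave less than 0.05. The exchanged residue cannot be read from gene counts, so that Hcn4 does not check the labels. Hcn4 was at 10.6, 9.83, 9.29 and 8.07 CPM in WT-Sham and at 11.9 and 13.5 CPM in WT-TAC (log2 fold change 0.43 ± 0.30 (SE), adjusted p = 0.437). In edgeR on the WT groups alone its adjusted p-value was 0.0324. The cardiomyocyte markers Myh6, Actc1, Tnnt2, Tnni3, Mb, Myl2, Ttn and Ckm were abundant in every library. They summed to 86290 to 89470 CPM in WT-Sham and to 77480 to 79510 CPM in WT-TAC, and 5 of the 8 lay below the WT-Sham range and none above it. The 8 atrial markers summed to 67.1 to 72.7 CPM in WT-Sham and to 60.4 to 63.7 CPM in WT-TAC, with Sln and Bmp10 at no more than 3 counts in every WT library.

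Of 15292 tested genes, 68 were called higher and 40 lower in WT-TAC, which is 0.445% and 0.262% of them. Both WT-TAC libraries lay above all WT-Sham libraries for 2942 genes (19.2%) and below them for 3052 genes (20%), and 9298 genes overlapped. With total counts in place of TMM these numbers were 3665 above and 2254 below. Without a limit on the fold change, 447 genes were higher (2.92%) and 247 lower (1.62%) at an adjusted p-value under 0.05, and 1733 (11.3%) and 1638 (10.7%) at an unadjusted one. These shares are the background against which the members of each gene list are read. The rule by which many genes below were named asked for no overlap, so that for these genes it is no result of its own. The median log2 fold change over all tested genes was -0.02. The number of calls rested strongly on WT-TAC replicate 3. Without it 7 genes were called, all of them higher, so that every other call given below was lost without that library. Without replicate 2 the number was 75. The 7 were Acta1, Mybpc2 and Synpo2l of the stressed cardiomyocyte and the immediate early genes Egr1, Junb, Myc and Cyr61, and each of them was called whichever of the 6 WT libraries was left out. The spread also depended on the groups fitted. Of the 43 genes named here that did not pass the adjusted p-value, 28 passed it in edgeR on the WT groups alone and 14 in DESeq2 on all groups, and of the 77 that passed, Dnajb1, Gadd45b and Txnip did not in edgeR on the WT groups alone.

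Of the 27 gene lists, that of the fetal and stressed cardiomyocyte had the median farthest from WT-Sham. Of 25 genes 24 could be tested, 10 were called higher and none lower, and both WT-TAC libraries lay above all WT-Sham libraries for 21 of them (87.5%). Their median log2 fold change was 1.02. By library, the median of the list differed from the WT-Sham mean by -0.05, 0.00, 0.12 and -0.01 in WT-Sham and by 0.93 and 1.08 in WT-TAC. The summed cardiomyocyte markers were lower in WT-TAC, and their part in these values was not tested.

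Acta1 encodes skeletal α-actin, the fetal actin isoform of heart muscle. It was at 118, 173, 253 and 171 CPM in WT-Sham and at 1191 and 1945 CPM in WT-TAC. Both WT-TAC values were above every WT-Sham value, and the rise was 8.78-fold (log2 fold change 3.13 ± 0.35 (SE), adjusted p = 0.00189). Mybpc2, the fast skeletal isoform of myosin-binding protein C, was at 12.9, 15.4, 18.8 and 12.5 CPM in WT-Sham and at 53.6 and 51.5 CPM in WT-TAC. The 2 WT-TAC values of Mybpc2 were close to each other and far from the WT-Sham range (log2 fold change 1.82 ± 0.21 (SE), adjusted p = 0.00123). Ankrd1 encodes an ankyrin repeat protein that links titin in the sarcomere to transcription in the nucleus. It was at 693, 713, 679 and 626 CPM in WT-Sham and at 1432 and 1364 CPM in WT-TAC (log2 fold change 1.04 ± 0.21 (SE), adjusted p = 0.0193). Its call was lost without WT-Sham replicate 1, WT-Sham replicate 4 or either WT-TAC library, while its log2 fold change lay between 1.01 and 1.13 over all alternatives.

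Several of the other called genes encode proteins of the Z-disc and of the actin cytoskeleton that anchors it. Synpo2l, an actin-associated Z-disc protein, was at 122, 121, 140.4 and 118 CPM in WT-Sham and at 282 and 442 CPM in WT-TAC (log2 fold change 1.53 ± 0.19 (SE), adjusted p = 0.00123). Flnc encodes filamin C, which crosslinks actin at the Z-disc, and was at 494, 517, 569 and 492 CPM in WT-Sham and at 901 and 1199 CPM in WT-TAC (log2 fold change 1.02 ± 0.12 (SE), adjusted p = 0.00107). Myot, the gene of the Z-disc protein myotilin, rose by 1.64, Klhl34 by 1.62, Enah, which elongates actin filaments, by 1.14, and Xirp1 of the intercalated disc by 1.04 on the log2 scale. Tnfrsf12a, the receptor of the cytokine TWEAK, rose by 1.38. For all of these WT-TAC replicates 2 and 3 lay above all WT-Sham libraries, which the naming rule asks of the genes it selects. Xirp2 (0.90, adjusted p = 0.00358) and Fhl1 (0.67, adjusted p = 0.0457) passed the adjusted p-value with log2 fold changes under 1. Of 24 cytoskeleton and microtubule genes none was called by edgeR or DESeq2. Above the WT-Sham range lay 10 (41.7%, against 19.2% of all genes) and below it 1. The 5 that were higher at an adjusted p-value under 0.05 were Nrap (0.72, adjusted p = 0.00263), the microtubule-associated Map4 (0.44, adjusted p = 0.0108), Ldb3 (0.41, adjusted p = 0.0313), Actn2 (0.37, adjusted p = 0.0221) and Vcl (0.47, adjusted p = 0.0401), and 10 were higher and none lower at an unadjusted one.

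**Figure D1:**
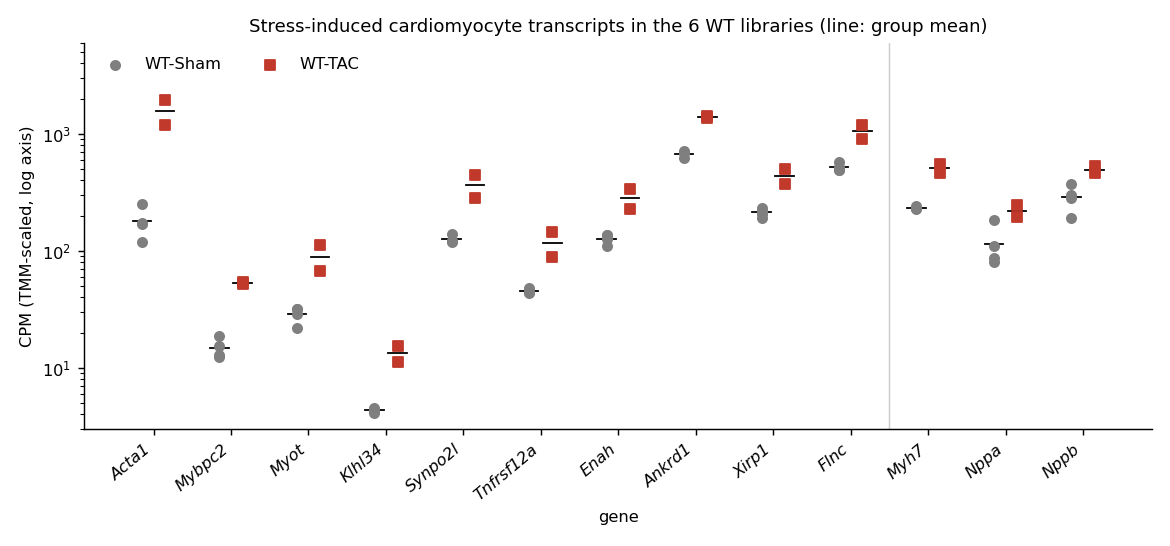
CPM after TMM scaling (log axis) of 13 genes of the stressed cardiomyocyte, with a point for each of the 4 WT-Sham (circles) and 2 WT-TAC (squares) libraries and a line for the group mean. The 10 genes to the left of the vertical line were called higher, and for Myh7, Nppa and Nppb to its right both WT-TAC libraries also lay above all WT-Sham libraries but the test was not passed.

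Classical markers of load were above the WT-Sham range without passing the test in the fit of all groups. Myh7, β-myosin heavy chain, was at 233, 230.2, 239 and 226 CPM in WT-Sham and at 462 and 548 CPM in WT-TAC. The WT-Sham values of Myh7 lay close together and both WT-TAC values were well above them, but over all 4 groups its spread was larger (log2 fold change 1.12 ± 0.42 (SE), adjusted p = 0.143). In edgeR on the WT groups alone it was called (adjusted p = 2.76e-05). Nppa and Nppb encode the precursors of the natriuretic peptides that the loaded heart secretes. Nppa was at 109, 80.9, 86.9 and 182 CPM in WT-Sham and at 244 and 195 CPM in WT-TAC (log2 fold change 0.93 ± 0.53 (SE), adjusted p = 0.333). Nppb was at 190.4, 282, 372 and 299 CPM in WT-Sham and at 458 and 531 CPM in WT-TAC (log2 fold change 0.79 ± 0.42 (SE), adjusted p = 0.301). The highest WT-Sham library of Nppa came close to the lower WT-TAC library. In HCN4F mice the log2 fold changes of TAC against Sham were 3.21 ± 0.48 for Nppa and 2.46 ± 0.37 for Myh7, and the differences between the genotypes did not pass the interaction test (adjusted p = 0.46 and 0.511, edgeR).

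The sequence just before the starts of Acta1, Mybpc2, Ankrd1 and Myh7 is shown. They were chosen from the genes above the WT-Sham range because they hold an M-CAT element there, so that its presence in these 4 is no result. These are the 250 bases upstream of the start that RefSeq annotates on GRCm38.p6, 5′ to 3′ on the strand of the gene. Capitals mark the M-CAT element CATTCC on either strand, which TEAD factors bind in muscle genes, and in Acta1 also the CArG box, which serum response factor binds. All of these genes lie on the minus strand, at chr8:123894776-123895025, chr7:44524670-44524919, chr19:36119845-36120094 and chr14:54994627-54994876.
Acta1: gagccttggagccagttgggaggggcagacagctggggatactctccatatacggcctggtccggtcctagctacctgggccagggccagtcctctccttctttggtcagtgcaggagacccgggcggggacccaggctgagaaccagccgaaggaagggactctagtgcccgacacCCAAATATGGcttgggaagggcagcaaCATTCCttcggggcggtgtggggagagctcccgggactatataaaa
Mybpc2: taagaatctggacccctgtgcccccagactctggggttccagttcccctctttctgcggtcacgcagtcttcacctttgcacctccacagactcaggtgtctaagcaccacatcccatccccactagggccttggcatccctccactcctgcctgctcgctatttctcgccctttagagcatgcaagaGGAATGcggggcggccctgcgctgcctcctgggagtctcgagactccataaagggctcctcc
Ankrd1: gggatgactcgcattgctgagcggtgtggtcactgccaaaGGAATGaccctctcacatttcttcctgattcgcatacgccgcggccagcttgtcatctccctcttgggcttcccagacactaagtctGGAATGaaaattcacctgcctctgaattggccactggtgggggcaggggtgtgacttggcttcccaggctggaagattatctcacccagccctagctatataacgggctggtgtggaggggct
Myh7: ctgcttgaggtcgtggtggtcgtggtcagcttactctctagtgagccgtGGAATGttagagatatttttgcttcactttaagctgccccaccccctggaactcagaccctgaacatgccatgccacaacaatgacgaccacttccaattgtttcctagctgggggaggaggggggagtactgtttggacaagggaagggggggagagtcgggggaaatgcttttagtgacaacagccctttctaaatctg
The M-CAT of Acta1 began 46 bases and its CArG box 73 bases before the start. The M-CAT of Mybpc2 began 62 bases before the start, the pair in Ankrd1 210 and 123 bases, and that of Myh7 201 bases before it. Of the 24 tested genes of the list 20 had an upstream window, and 6 of these (30%) held an M-CAT, Acta2 and Nppb being the others. The share over 27025 genes with such a window was 12.6%. A CArG box was found in Acta1 and Fhl1, and in 1.4% of all windows. These matches describe letters in the window and not sites that were shown to be used.

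Among the genes of the list that did not rise, Acta2, the smooth muscle actin, was at 213, 164, 185 and 185 CPM in WT-Sham and at 124 and 127 CPM in WT-TAC (log2 fold change -0.58 ± 0.25 (SE), adjusted p = 0.191). Both WT-TAC values were below the WT-Sham range, and edgeR on the WT groups alone gave an adjusted p-value of 0.00541. Acta2 is also a marker of smooth muscle. Of 8 smooth muscle and pericyte markers 3 were below the WT-Sham range and 1 above, with a median log2 fold change of -0.11, and their sums overlapped (1180.0 to 1257 CPM in WT-Sham and 1180.0 to 1284 CPM in WT-TAC). Among them Myh11 (-0.76, adjusted p = 0.317) and Tagln (-0.76, adjusted p = 0.198) did not pass the test. Csrp3 (0.19, adjusted p = 0.333) and Nmrk2 (0.36, adjusted p = 0.632) overlapped between the groups.

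The genes of the adult contractile apparatus and of calcium cycling did not move in a common direction. None of 21 was called by edgeR or by DESeq2, and in edgeR 7 were higher and 4 lower at an unadjusted p-value under 0.05. Both WT-TAC libraries lay above the WT-Sham range for 9 (42.9%) and below it for 8 (38.1%), against 19.2% and 20% of all genes. The median log2 fold change was -0.06. Myh6, α-myosin heavy chain, was at 31827, 31455, 31549.9 and 32816 CPM in WT-Sham and at 31643 and 29647 CPM in WT-TAC (log2 fold change -0.06 ± 0.10 (SE), adjusted p = 0.777). Atp2a2, which encodes the calcium pump SERCA2, was at 9199, 11829, 12596 and 10793 CPM in WT-Sham and at 15303 and 14271 CPM in WT-TAC (log2 fold change 0.41 ± 0.17 (SE), adjusted p = 0.18). Both WT-TAC values of Atp2a2 lay above the WT-Sham range, and it passed the adjusted p-value in edgeR on the WT groups alone (0.0308). Slc8a1, the sodium-calcium exchanger, was higher (0.90, adjusted p = 0.0314), and the troponin genes Tnnt2 (-0.39, adjusted p = 0.0257) and Tnni3 (-0.52, adjusted p = 0.0427) were lower, all with changes under the call limit. With the trend in transcript length that is described below removed, Tnni3 was at -0.31 and neither it nor Slc8a1 passed the adjusted p-value (0.173 and 0.114).

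The immediate early genes had the next largest median. Of 29 tested genes 9 were called higher and none lower by edgeR, and 10 higher and 1 lower by DESeq2. For 19 of them (65.5%) both WT-TAC libraries lay above all WT-Sham libraries. Their median log2 fold change was 0.64. By library, the median of the list was 0.99 and 0.50 above the WT-Sham mean in WT-TAC and within -0.09 to 0.10 of it in WT-Sham.

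Egr1, a zinc-finger transcription factor of the growth response, was at 18.5, 11.4, 9.56 and 10.7 CPM in WT-Sham and at 187 and 124 CPM in WT-TAC. It rose 12.4-fold, with no overlap (log2 fold change 3.63 ± 0.34 (SE), adjusted p = 0.00107). Its relatives Egr2 and Egr3 rose as well, from 0.421 to 0.85 CPM in WT-Sham to 10.6 and 3.21 CPM in WT-TAC for Egr2 (log2 fold change 3.58 ± 0.69 (SE), adjusted p = 0.0219) and by 2.82 on the log2 scale for Egr3. Their WT-TAC values differed more between the 2 libraries, with replicate 2 the higher. Fos, a partner in the AP-1 transcription factor, was at 2.33, 2.32, 2.10 and 2.58 CPM in WT-Sham and at 15.3 and 12.1 CPM in WT-TAC (log2 fold change 2.55 ± 0.39 (SE), adjusted p = 0.00773). Junb, another AP-1 subunit, was at 22.1, 15.2, 15.03 and 19.3 CPM in WT-Sham and at 72.7 and 66.3 CPM in WT-TAC (log2 fold change 1.95 ± 0.24 (SE), adjusted p = 0.0019). Myc, which drives growth and ribosome production, was at 2.37, 2.79, 1.68 and 2.81 CPM in WT-Sham and at 12.1 and 6.64 CPM in WT-TAC (log2 fold change 1.93 ± 0.27 (SE), adjusted p = 0.00263).

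Cyr61 encodes a matricellular protein and is a target of YAP and serum response factor. It was at 43.4, 41.4, 39.96 and 40.2 CPM in WT-Sham and at 154 and 111 CPM in WT-TAC, with the smallest SE given for these genes (log2 fold change 1.68 ± 0.15 (SE), adjusted p = 7.4e-05). Ier2 (1.46, adjusted p = 0.00696) and Arc (1.69, adjusted p = 0.0476) were also called. Btg2 (0.91, adjusted p = 0.0348) and Csrnp1 (0.83, adjusted p = 0.0437) passed the adjusted p-value with smaller changes, and Fosb did not pass (1.29, adjusted p = 0.124) except in edgeR on the WT groups alone (adjusted p = 0.0107). The flow-sensitive factor Klf2 went the other way, from 75.5, 89.3, 77.4 and 70.5 CPM in WT-Sham to 42.4 and 31.7 CPM in WT-TAC, with both WT-TAC values below the range (log2 fold change -1.08 ± 0.30 (SE), adjusted p = 0.0591). DESeq2 (adjusted p = 0.00165) and edgeR on the WT groups alone (adjusted p = 0.00199) called it. Jun itself overlapped between the groups (-0.30, adjusted p = 0.266).

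Feedback genes of the MAP kinase and growth arrest pathways had a median log2 fold change of 0.22 over 19 tested genes. Both WT-TAC libraries lay above the WT-Sham range for 9 of them (47.4%, against 19.2% of all genes) and below it for none. Gadd45b was the only one called by edgeR (log2 fold change 1.19 ± 0.25 (SE), adjusted p = 0.0222), and DESeq2 called 2. In edgeR on the WT groups alone Gadd45b was not called (adjusted p = 0.0725). Dusp8, a phosphatase of stress-activated kinases, was at 43.1, 44.8, 51.04 and 43.2 CPM in WT-Sham and at 80.1 and 81.7 CPM in WT-TAC (0.83, adjusted p = 0.00349). Gadd45g (1.22, adjusted p = 0.0523) and Dusp1 (0.81, adjusted p = 0.243) were also above the WT-Sham range without passing the test. Gadd45g was called by DESeq2 (adjusted p = 0.0153) and by edgeR on the WT groups alone (adjusted p = 0.00503).

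For several immediate early genes the level in WT-Sham was low beside that in the HCN4F groups. By library, the median of the list was 0.22, 0.69, 0.51 and 0.73 above the WT-Sham mean in HCN4F-Sham. Egr1 was at 109 to 206 CPM in HCN4F-Sham and at 149.9 to 257 CPM in HCN4F-TAC. Fos was at 4.98 to 14.7 CPM, Junb at 38.6 to 69.1 CPM and Myc at 5.03 to 9.98 CPM in HCN4F-Sham. All 4 HCN4F-Sham libraries thus lay above all 4 WT-Sham libraries for Egr1, Fos, Junb and Myc, without a constriction. Both of these comparisons use the same 4 WT-Sham libraries, so that they are not independent of each other. For Egr1 the log2 fold change against WT-Sham was 3.63 ± 0.34 in WT-TAC and 3.65 ± 0.31 in HCN4F-Sham. Within the HCN4F libraries, which share none with the WT comparison, TAC against Sham gave 0.47 ± 0.27 for Egr1, 0.93 ± 0.20 for Junb, 1.09 ± 0.31 for Fos and 2.23 ± 0.45 for Egr2. The difference between the genotypes in the TAC response did not pass the interaction test for any of these 4 genes (adjusted p = 0.168, 0.439, 0.466 and 0.666, edgeR).

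**Figure D2:**
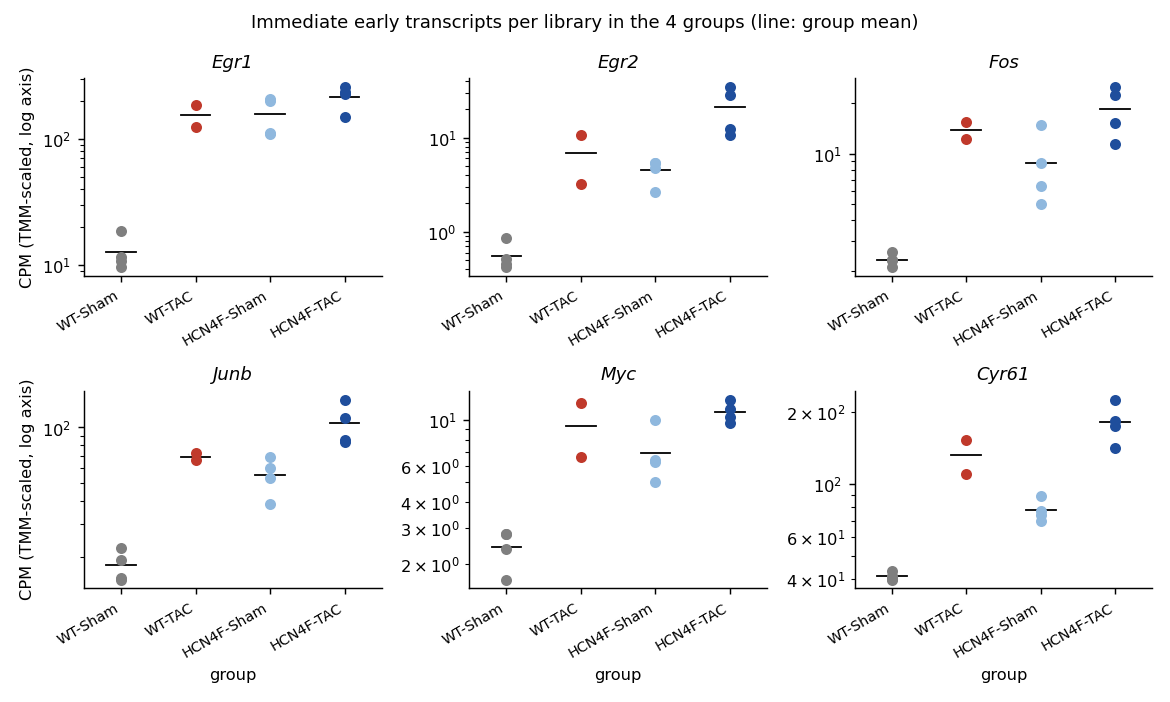
CPM after TMM scaling (log axes) of 6 immediate early genes in each library of the 4 groups, with a line for the group mean. The 4 WT-Sham libraries lie below the libraries of the other 3 groups for every gene drawn, and HCN4F-Sham overlaps with WT-TAC for each of them except Cyr61.

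Matrix genes differed by less. Collagens had a median log2 fold change of 0.23 over 19 tested genes. Both WT-TAC libraries lay above all WT-Sham libraries for 11 of them (57.9%, against 19.2% of all genes) and below for none. Col8a1, a short-chain network collagen, was the only collagen called. It was at 13.6, 11.2, 12.8 and 12.9 CPM in WT-Sham and at 27.5 and 33.4 CPM in WT-TAC (log2 fold change 1.27 ± 0.22 (SE), adjusted p = 0.00959), and the call was lost without WT-TAC replicate 3. The basement membrane collagen Col4a2 passed the adjusted p-value with a smaller change (0.51, adjusted p = 0.0319), and Col4a1 did not pass (0.40, adjusted p = 0.0943). The fibrillar collagens that make up scar did not pass the test in the fit of all groups. Col1a1 was at 163, 157, 153 and 158 CPM in WT-Sham and at 200.5 and 174 CPM in WT-TAC (log2 fold change 0.25 ± 0.22 (SE), adjusted p = 0.536, and 0.0319 in edgeR on the WT groups alone). Col3a1 was at 202, 206, 218 and 199 CPM in WT-Sham and at 253 and 199 CPM in WT-TAC (log2 fold change 0.13 ± 0.22 (SE), adjusted p = 0.761), and WT-TAC replicate 3 was at the level of the lowest WT-Sham library. The collagen transcripts are long, with a median of 5930 bases for the longest annotated transcript against 3233 bases over all tested genes. With the trend in transcript length removed from each library, the median of the list was 0.09, and Col4a2 was at 0.40 and no longer passed (adjusted p = 0.146).

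Of 38 matricellular and crosslinking genes 1 was called. Both WT-TAC libraries lay above the WT-Sham range for 17 (44.7%, against 19.2% of all genes) and below it for 1. The called gene was Thbs1, thrombospondin-1, an activator of latent TGF-β. It was at 17.1, 12.6, 13.5 and 8.004 CPM in WT-Sham and at 56.4 and 34.4 CPM in WT-TAC (log2 fold change 1.82 ± 0.39 (SE), adjusted p = 0.0296). The spread within each group was wide, and leaving out WT-Sham replicate 1, 2 or 4 or either WT-TAC library ended the call. Postn, periostin of activated fibroblasts, was at 19.03, 17.7, 20.6 and 18.8 CPM in WT-Sham and at 32.5 and 28.9 CPM in WT-TAC (log2 fold change 0.69 ± 0.38 (SE), adjusted p = 0.32). Ltbp2 (1.29, adjusted p = 0.19), Cilp (0.91, adjusted p = 0.306) and Fbn1 (0.60, adjusted p = 0.0549) were above the WT-Sham range without passing the test. In edgeR on the WT groups alone Ltbp2 was called (adjusted p = 0.000634), and Postn, Cilp and Fbn1 passed the adjusted p-value (0.00111, 0.00649 and 0.000747). Vcan, the proteoglycan versican, passed the adjusted p-value (0.56, adjusted p = 0.0301), but with the length trend removed it was at 0.40 and did not (adjusted p = 0.169). In HCN4F mice the log2 fold changes of TAC against Sham were 2.07 for Postn, 2.97 for Ltbp2, 3.27 for Cilp and 2.53 for Thbs1. The differences between the genotypes had adjusted interaction p-values of 0.473, 0.5, 0.419 and 0.706 (edgeR).

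Of 27 matrix proteases and their inhibitors 1 was called higher. In both WT-TAC libraries 8 lay above the WT-Sham range (29.6%, against 19.2% of all genes) and 2 below it. The median log2 fold change was 0.08. Adamts1, a protease that cleaves proteoglycans, was at 41.2, 47.01, 43.7 and 40.97 CPM in WT-Sham and at 75.5 and 79.4 CPM in WT-TAC, and passed the adjusted p-value with a change under the call limit (0.84, adjusted p = 0.0108). Of 28 genes of TGF-β signalling and fibroblast activation none was called by edgeR and 1 by DESeq2, and 8 were higher at an unadjusted p-value under 0.05 in edgeR. Both WT-TAC libraries lay above the WT-Sham range for 11 of them (39.3%, against 19.2% of all genes) and below it for 2. The TGF-β and activin antagonists Bambi (0.99, adjusted p = 0.0248) and Fstl3 (0.74, adjusted p = 0.0368) passed the adjusted p-value, and the activin subunit Inhbb did not (1.03, adjusted p = 0.0533). Inhbb was called by DESeq2 (adjusted p = 0.0097) and both Inhbb and Bambi by edgeR on the WT groups alone (adjusted p = 0.00819 and 0.00684). Of 8 fibroblast markers 1 lay above and 3 below the WT-Sham range, Dcn among the latter (-0.33, adjusted p = 0.103). Their sum was lower, at 1843 to 1958 CPM in WT-Sham and 1490.0 to 1829 CPM in WT-TAC, and its part in the matrix results was not tested. In whole tissue, fewer cells of a type and less RNA per cell cannot be told apart.

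Among secreted factors and their receptors, Edn3, the peptide endothelin-3, was at 1.996, 2.21, 2.87 and 2.22 CPM in WT-Sham and at 9.12 and 15.1 CPM in WT-TAC. Both WT-TAC libraries were far above all WT-Sham libraries (log2 fold change 2.39 ± 0.36 (SE), adjusted p = 0.00696). Hbegf, an EGF receptor ligand that cardiomyocytes shed under load, also rose (1.07, adjusted p = 0.0415). Met, the receptor of hepatocyte growth factor, was at 0.444, 0.617, 0.574 and 0.719 CPM in WT-Sham and at 1.40 and 3.23 CPM in WT-TAC (log2 fold change 1.99 ± 0.30 (SE), adjusted p = 0.00284). The list of 29 tested factors as a whole did not move one way, with a median log2 fold change of -0.08 and 6 genes on each side of the WT-Sham range. On the lower side were Fgf16 (-0.70, adjusted p = 0.067), Vegfb (-0.32, adjusted p = 0.0588) and Igf2 (-0.62, adjusted p = 0.247), none of which passed the test. Fgf16 and Vegfb passed the adjusted p-value in DESeq2 (0.0182 and 0.0137) and in edgeR on the WT groups alone (0.00503 and 0.0113). Igf2 passed in neither. With the trend in transcript length that is described below removed, Vegfb was at -0.15 (adjusted p = 0.295).

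Genes of energy metabolism differed by small amounts. Nuclear-encoded subunits of oxidative phosphorylation lay below all WT-Sham libraries in both WT-TAC libraries for 31 of 35 genes (88.6%) and above for none. Their median log2 fold change was -0.27, and by library the median was -0.27 and -0.24 in WT-TAC against 0.07, -0.05, -0.03 and 0.01 in WT-Sham. None passed the call limit with edgeR or DESeq2, 27 were lower at an unadjusted p-value under 0.05 (against 10.7% of all genes), and 6 at an adjusted one (against 1.62%). The former count was 13 without WT-TAC replicate 2, 15 without replicate 3 and 10 with the trend in transcript length removed. Cox7a1, the heart and muscle isoform of a complex IV subunit, was at 765, 682, 759.8 and 727 CPM in WT-Sham and at 444 and 474 CPM in WT-TAC (log2 fold change -0.68 ± 0.09 (SE), adjusted p = 0.00167). Cox8b (-0.46, adjusted p = 0.0268), the complex I subunit Ndufa5 (-0.42, adjusted p = 0.0238) and Atp5o of the ATP synthase (-0.35, adjusted p = 0.0337) followed.

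Cytosolic ribosomal protein genes showed nearly the same pattern. Both WT-TAC libraries were below all WT-Sham libraries for 29 of 30 genes (96.7%), with a median log2 fold change of -0.24. None was called by edgeR or DESeq2, and none reached an adjusted p-value under 0.05 in edgeR on all groups. At an unadjusted p-value under 0.05, 20 were lower, against 10.7% of all genes. That count was 1 without WT-TAC replicate 2, 5 without replicate 3, 9 with total counts in place of TMM and 2 with the length trend removed. Rpsa, which encodes a protein of the small subunit, was at 366, 326, 322 and 352 CPM in WT-Sham and at 237 and 291 CPM in WT-TAC (-0.37, adjusted p = 0.0975). Rps16 (-0.35, adjusted p = 0.122) and Rpl23 (-0.32, adjusted p = 0.0828) were likewise below the WT-Sham range. In edgeR on the WT groups alone Rpsa, Rps16 and Rpl23 passed the adjusted p-value (0.0291, 0.0146 and 0.0249), and Rpl23 also in DESeq2 (0.0403). With the length trend removed none of them passed in edgeR (0.196, 0.374 and 0.396).

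Both of these lists consist of short transcripts, and short transcripts in general lay lower in WT-TAC than in WT-Sham. Genes with a mean of at least 1 CPM were put into 5 classes of nearly equal size by their longest annotated transcript. From the shortest to the longest class the median log2 fold change was -0.18, -0.06, 0.01, 0.06 and 0.13. Both WT-TAC libraries lay below the WT-Sham range for 45.2% of the shortest and 7.48% of the longest class, and above it for 4.87% and 40.2%. Of 339 genes with at least 50 CPM and a transcript under 1500 bases, 77.3% were below the WT-Sham range, with a median of -0.24. With the length trend removed, an alternative chosen after seeing the data, the median was -0.13 for oxidative phosphorylation and -0.07 for ribosomal proteins. The number of calls was then 57, of which 42 were higher. Of the called genes named here, Flnc (0.89) and Enah (0.9985) then fell short of the fold limit and passed the adjusted p-value. Xirp1 (0.94) and Dnajb1 (-0.99) missed both. Thbs1, Arc, Hbegf, Dbh, Cnmd, Igha, S100a9, Ahsg, Tgtp1 and Tmprss4 missed the adjusted p-value while their fold changes moved little, from 1.69 to 1.70 for Arc, from 1.82 to 1.72 for Thbs1 and from -2.21 to -2.07 for Cnmd. Among the genes with smaller changes, Fhl1, Ldb3, Vcl, Slc6a8, Esrrb, Rxrg, Csrnp1, Bambi, Cxcl14, Rgs4 and Hspb2 no longer passed the adjusted p-value. Smaller falls of short transcripts shrank more, to -0.41 for Cox7a1, -0.19 for Cox8b, -0.20 for Ndufa5 and -0.14 for Atp5o. None of these passed the adjusted p-value any more (0.054, 0.219, 0.123 and 0.284, edgeR). The median log2 fold changes of TAC against Sham in HCN4F were -0.11 and 0.02 in the shortest and the longest class. A slope of this kind was also seen without a constriction in 2 of the 4 HCN4F-Sham libraries. Against the WT-Sham mean HCN4F-Sham replicate 3 went from -0.13 in the shortest to 0.11 in the longest class and replicate 4 from -0.11 to 0.13, while replicates 1 and 2 were at 0.06 and 0.03 in the shortest class. Replicate 3 of HCN4F-Sham was at -0.27 for oxidative phosphorylation and at -0.21 for ribosomal proteins. Replicate 4 of HCN4F-Sham was at -0.17 and -0.05, and the latter lay within the -0.08 to 0.09 of WT-Sham.

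**Figure D3:**
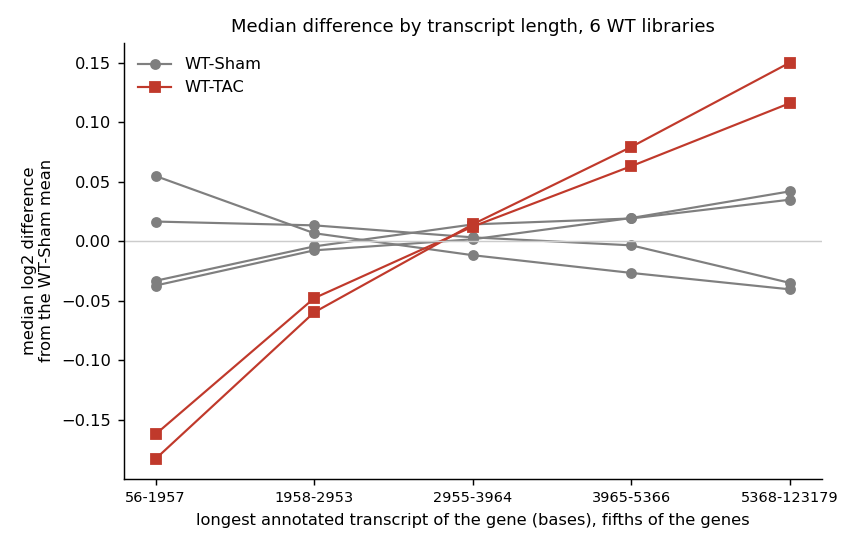
Median log2 difference from the WT-Sham mean in the 6 WT libraries for genes of at least 1 CPM, in 5 classes of the longest annotated transcript (bases). Both WT-TAC libraries (squares) run from below all WT-Sham libraries (circles) in the shortest class to above them in the longest class.

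Of 30 genes of fatty acid uptake and oxidation 14 (46.7%, against 20% of all genes) lay below the WT-Sham range in both WT-TAC libraries. Above it lay 3 (10%, against 19.2%), and the median log2 fold change was -0.11. None was called by edgeR or DESeq2. At an unadjusted p-value under 0.05 in edgeR 3 were lower, which is near the 10.7% of all genes. At an adjusted one 2 were lower, against 1.62% of all genes. Acaa2, which carries out the last step of β-oxidation, was at 878, 746, 761 and 766 CPM in WT-Sham and at 571 and 529 CPM in WT-TAC (log2 fold change -0.52 ± 0.10 (SE), adjusted p = 0.0144). Etfb, which passes electrons from β-oxidation to the respiratory chain, followed (-0.58, adjusted p = 0.0248), and Eci1 did not pass the test (-0.34, adjusted p = 0.0723). With the length trend removed Acaa2 was at -0.38 and Etfb at -0.36, and neither passed the adjusted p-value. Cd36, which takes up fatty acids, did not pass the test (0.15, adjusted p = 0.442). Pdk4, which restrains the oxidation of pyruvate, varied widely in WT-Sham, from 195 to 733 CPM, and was at 882 and 814 CPM in WT-TAC (0.83, adjusted p = 0.306).

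Glycolysis did not move as a whole, with 5 of 29 genes above (17.2%) and 9 below (31.0%) the WT-Sham range, against 19.2% and 20% of all genes. Ldhb (-0.37, adjusted p = 0.0254) and the muscle enolase Eno3 (-0.38, adjusted p = 0.027) were lower, and Pfkp, a phosphofructokinase isoform of other tissues, was just short of the threshold (0.57, adjusted p = 0.0523). Pfkfb1, which makes an activator of phosphofructokinase, was below the WT-Sham range (-1.03, adjusted p = 0.0998) and was called by DESeq2 (adjusted p = 0.0223). With the length trend removed Ldhb was at -0.21 and Eno3 at -0.24, and neither passed the adjusted p-value. Among 21 metabolic regulators, the creatine transporter Slc6a8 (0.73, adjusted p = 0.0367) and the nuclear receptor Esrrb (0.53, adjusted p = 0.0368) were higher and Rxrg (-0.51, adjusted p = 0.0269) was lower. Ppargc1a, the coactivator of mitochondrial biogenesis, overlapped (0.21, adjusted p = 0.816), and Ppara, the fatty acid receptor, lay above the WT-Sham range (0.47, adjusted p = 0.28). Mitochondrially encoded transcripts had a median log2 fold change of -0.24 over 13 genes. Both WT-TAC libraries were below the WT-Sham range for 6 (46.2%, against 20% of all genes) and above it for none.

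Several of the genes with the largest falls have low counts. The largest among genes of at least 1 CPM was that of Cnmd, chondromodulin, a matrix protein of cartilage and valves, at 1.52, 1.56, 1.95 and 2.03 CPM in WT-Sham and at 0.493 and 0.286 CPM in WT-TAC. It was called (log2 fold change -2.21 ± 0.55 (SE), adjusted p = 0.0359), but in none of the fits that left out a library. The other 7 markers of cartilage and valve, Cnmd left out, summed to 9.82 to 11.1 CPM in WT-Sham and to 4.46 to 9.81 CPM in WT-TAC, with Col2a1, Matn1 and Matn3 at no more than 3 counts. Of the 4 tested of them 1 lay above the WT-Sham range and none below, and their part in this fall was not tested. Dbh, dopamine β-hydroxylase, makes noradrenaline in sympathetic nerves. It was at 2.85, 2.58, 3.25 and 2.45 CPM in WT-Sham and at 1.23 and 0.429 CPM in WT-TAC (log2 fold change -1.80 ± 0.43 (SE), adjusted p = 0.0308). The other 7 markers of Schwann cells and neurons, Dbh left out, summed to 6.43 to 8.98 CPM in WT-Sham and 5.46 to 5.81 CPM in WT-TAC, and of the 4 tested of them 2 were below the WT-Sham range and none above. Their part in the fall of Dbh was not tested. Ddc, the decarboxylase of the same pathway, went the other way (1.09, adjusted p = 0.0414).

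Tbc1d10c, which encodes the calcineurin inhibitor carabin, was at 7.24, 6.82, 5.74 and 5.42 CPM in WT-Sham and at 2.51 and 2.58 CPM in WT-TAC (log2 fold change -1.31 ± 0.22 (SE), adjusted p = 0.00579). Fam84b (-1.64, adjusted p = 0.0134), the neuregulin gene Nrg2 (-1.61, adjusted p = 0.0205), the cadherin Cdh22 (-1.61, adjusted p = 0.0333) and the protease Tmprss4 (-1.39, adjusted p = 0.0358) fell as well. So did Ahsg (-1.55, adjusted p = 0.0348), the interferon-inducible GTPase Tgtp1 (-1.30, adjusted p = 0.0357) and the antisense transcript Banf2os (-1.37, adjusted p = 0.0134). Whether the counting used the strand is not given in the sources used here, so that reads of Banf2os and of its partner gene cannot be told apart.

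Macrophage markers had a median log2 fold change of -0.27 over 10 genes, of which 4 were below the WT-Sham range and none was above, and summed to 200.1 to 241 CPM in WT-Sham and 180.2 to 198 CPM in WT-TAC. Interferon-stimulated genes had a median of -0.25 over 26, with 9 below (34.6%, against 20% of all genes) and none above. None was called by edgeR or DESeq2, and 5 were lower at an unadjusted p-value under 0.05, against 10.7% of all genes. By library the median was -0.41 and -0.08 in WT-TAC, and the latter lay within the -0.19 to 0.09 of WT-Sham. Without WT-TAC replicate 2, 1 of these genes was lower at an unadjusted p-value under 0.05, and without replicate 3 it was 8. The neutrophil alarmins S100a8 and S100a9 are at very low levels. S100a8 was at 0.0739, 0.181, 0 and 0.098 CPM in WT-Sham and at 0.78 and 0.487 CPM in WT-TAC (2.73, adjusted p = 0.0248), and a count of 0 allows up to 0.0980 to 0.115 CPM in the WT-Sham libraries. S100a9 was also called (2.91, adjusted p = 0.0409). DESeq2 gave neither of them an adjusted p-value, and neither was called with the replicate block. The monocyte and neutrophil markers summed to 1.87 to 4.38 CPM in WT-Sham and 4.06 to 4.39 CPM in WT-TAC, which overlapped. Of 6 tested, S100a8 and S100a9 included, 3 lay above the WT-Sham range and none below, with a median log2 fold change of 1.64. The immunoglobulin gene Igha was at 2.11, 2.50, 1.91 and 1.73 CPM in WT-Sham and at 5.22 and 19.1 CPM in WT-TAC (2.58, adjusted p = 0.0489), and Igkc at 1.29, 2.03, 1.03 and 1.86 and at 2.999 and 7.87 CPM (1.82, adjusted p = 0.142, and 0.0268 in edgeR on the WT groups alone). The markers of B and plasma cells, of which these are members, summed to 7.99 to 10.7 CPM in WT-Sham and 12.4 to 36.5 CPM in WT-TAC, and 2 of 7 tested lay above the WT-Sham range and none below. The chemokine Cxcl14 was lower (-0.98, adjusted p = 0.0303).

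Of the stress pathways, the cytosolic heat shock proteins held 1 called gene among 20, Dnajb1, a partner of HSP70, at 20.5, 31.2, 44.6 and 30.1 CPM in WT-Sham and at 16.4 and 15.1 CPM in WT-TAC (-1.01, adjusted p = 0.0319). In DESeq2 it passed the adjusted p-value (0.000752) and fell just short of the fold limit. The small heat shock protein genes Hspb7 (0.48, adjusted p = 0.018) and Hspb2 (-0.38, adjusted p = 0.0375) went in opposite directions, and Hspb2 was at -0.15 with the length trend removed. Of 21 antioxidant genes 6 lay above (28.6%) and 7 below (33.3%) the WT-Sham range, against 19.2% and 20% of all genes. Their median log2 fold change was 0.02. The glutathione transferases Gstm1 (-0.47, adjusted p = 0.0238), Gstm2 (-0.49, adjusted p = 0.0134) and Gsta4 (-0.43, adjusted p = 0.0298) were lower and the thioredoxin inhibitor Txnip was higher (0.68, adjusted p = 0.0298). With the length trend removed the transferases were at -0.31, -0.30 and -0.23, and none of these 3 passed the adjusted p-value. Genes of the unfolded protein response lay above the WT-Sham range for 9 of 22 (40.9%, against 19.2% of all genes) and below it for 1, with a median of 0.07. None was called by edgeR or DESeq2. At an unadjusted p-value under 0.05, 5 were higher and 1 lower, against 11.3% and 10.7% of all genes.

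Cell cycle genes had a median log2 fold change of 0.39 over 33. Of these 14 (42.4%, against 19.2% of all genes) lay above the WT-Sham range and none below. None was called in edgeR, and DESeq2 gave 1 call in each direction. At an unadjusted p-value under 0.05, 7 were higher and 1 lower in edgeR, against 11.3% and 10.7% of all genes. Ccnd2, a cyclin of the G1 phase, was at 128, 144, 136 and 137 CPM in WT-Sham and at 167 and 217 CPM in WT-TAC (0.49, adjusted p = 0.0981), and the replication factor Mcm5 was above the WT-Sham range (0.62, adjusted p = 0.156). Ion channels and gap junctions were spread around 0.03 over 37 genes, with 1 called higher. Of them 8 lay above (21.6%) and 7 below (18.9%) the WT-Sham range, against 19.2% and 20% of all genes. Gja5, connexin 40 of the conduction system, lay below the WT-Sham range without passing the test (-0.64, adjusted p = 0.0591). It passed the adjusted p-value in DESeq2 (0.0224) and in edgeR on the WT groups alone (0.0112). In adrenergic signalling the G protein regulators Rgs4 (-0.50, adjusted p = 0.0338) and Rgs2 (-0.64, adjusted p = 0.0876) were below the WT-Sham range, and of these Rgs4 passed the adjusted p-value.

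**Figure D4:**
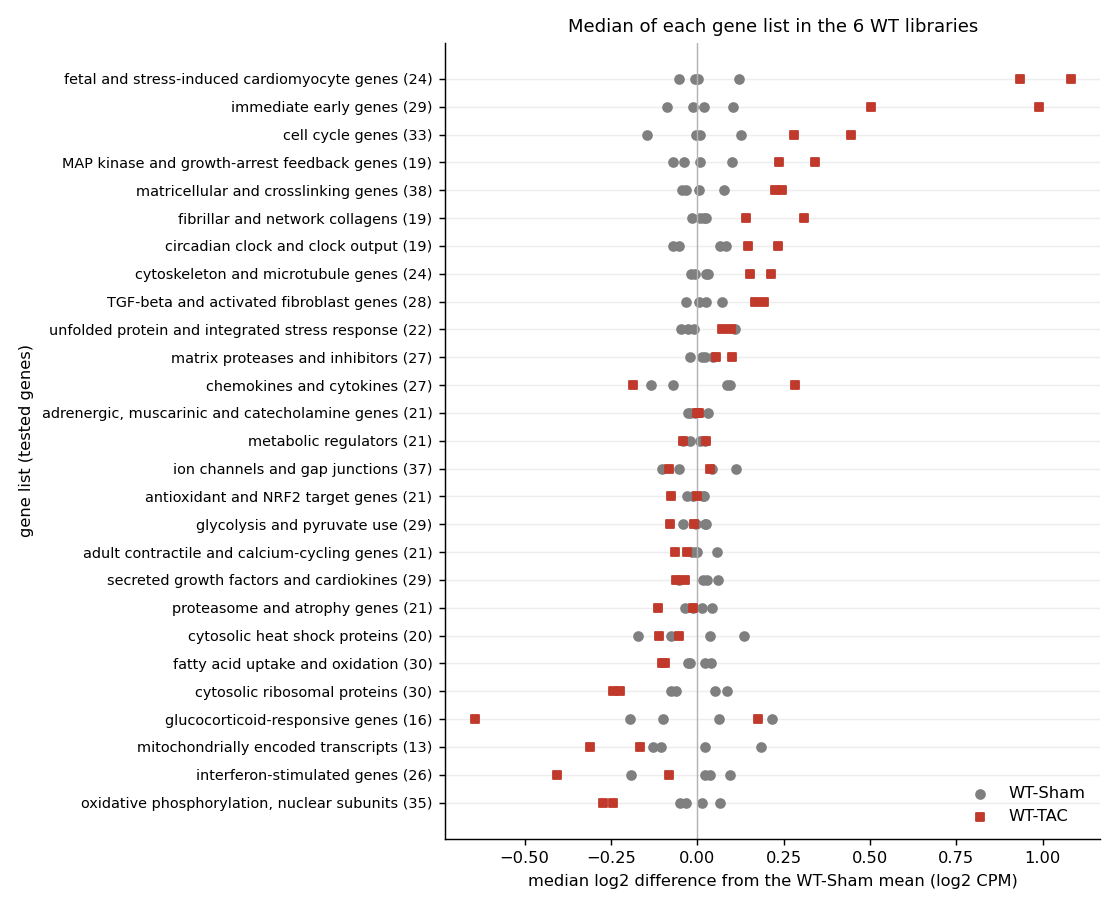
Median log2 difference from the WT-Sham mean (log2 CPM) of the tested genes of 27 gene lists, with the number of tested genes in brackets, in the 4 WT-Sham (circles) and 2 WT-TAC (squares) libraries. The fetal and stress-induced cardiomyocyte genes (0.93 and 1.08 in WT-TAC) and the immediate early genes (0.99 and 0.50) have the medians over both WT-TAC libraries that stand farthest from WT-Sham, and the nuclear subunits of oxidative phosphorylation (-0.27 and -0.24) lie below it.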

How the data were processed

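RNA of mouse left ventricle was poly-A selected and sequenced on an Illumina platform. The authors deposited raw counts per gene, with no normalization, for 49315 genes. Per the submitters' processing notes the genome build is GRCm38. The aligner, the counting program, the gene models and whether strand was used are not given in the sources used here. Groups and replicate numbers were taken from the sample labels. The study describes 16 samples, of which 14 were used. Another 2 columns of values could be matched to no sample label and were not used, and further WT-TAC samples were not analysed here. Rows without a gene symbol numbered 174.

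Genes were filtered with filterByExpr in edgeR 4.0.16 (R 4.3.3), which left 15292, and scaled by TMM. All 14 libraries were fitted with 1 mean per group and the contrast WT-TAC minus WT-Sham was tested with the robust quasi-likelihood test, adjusted over all of these genes after Benjamini and Hochberg. Standard errors were taken from the test statistic. The interaction of genotype and surgery came from the same fit. A prior count of 2 was added for log2 CPM of single libraries. A count of 0 allows up to 3 counts, which covers counting error only. The steps were tested on simulated data.

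The members and the gene lists were chosen with earlier results of these data known, so that lists are described by counts and medians and carry no test. Genes named are Nppa, Nppb, Acta1, Myh7, Myh6, Atp2a2, Ankrd1, Col1a1, Col3a1, Postn and Hcn4, the 12 largest rises and 12 largest falls among called genes of at least 1 CPM without overlap, and in each list up to 4 members of at least 1 CPM without overlap that changed most. Predicted genes were passed over. Other genes were chosen after their values were seen, and some genes that the rule selects are not reported here. Transcript lengths were those of GENCODE on GRCm38 and upstream sequences those of RefSeq. Alternatives were DESeq2 1.42.0, edgeR on WT alone, DESeq2 size factors, total counts, other filters, non-robust estimation, a replicate block, each replicate left out and, added later, removal of the length trend. Figures used matplotlib 3.10.9.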

Additional observations from a re-analysis of the deposited data

Results flagged for a closer look

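In 4 of 120 genes looked at, 1 WT-Sham library stood far from the other 3. These were Acaa2 in replicate 1 (878 CPM), Cdh22 in replicate 3 (2.71 CPM), Fgf16 in replicate 3 (24.1 CPM) and Mcm5 in replicate 1 (3.70 CPM). Chance marks about 1 in 20 such groups. No gene list median had a WT-Sham library of this kind among 27 lists.

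In 3 genes every WT-TAC library lay on one side of WT-Sham and every HCN4F-TAC library on the other side of HCN4F-Sham. The heat shock partner Dnajb1 had a log2 fold change of -1.01 in WT and 0.50 in HCN4F (interaction, adjusted p = 0.223, edgeR's quasi-likelihood test). Gadd45b had 1.19 in WT and -0.36 in HCN4F (interaction, adjusted p = 0.295). Txnip had 0.68 in WT and -0.32 in HCN4F (interaction, adjusted p = 0.223). None of these differences passed the interaction test.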

How the results depend on the processing

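Against 108 calls (68 higher, 40 lower), edgeR on the WT groups alone gave 192 (108 higher, 84 lower), the replicate block 68 (21 lower) and removal of the length trend 57 (42 higher, 15 lower). Leaving out 1 WT library gave 7 to 91 calls in all, 7 to 54 higher and 0 to 37 lower. WT-TAC replicate 3 set the lowest values, and without WT-Sham replicates 1 and 4 there were 49 and 47 calls. With 1 library left, WT-TAC is taken to vary like the other groups. Genes with WT-TAC above the WT-Sham range numbered 3159 to 4694 and those below it 3401 to 5097 with 1 library left out, since fewer libraries widen these counts, and 3665 and 2254 with total counts in place of TMM. Of 40 called genes named, 7 were called in all 6 leave-one-out fits, 37 by DESeq2, 30 with the block and 26 with the length trend removed.

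The median of oxidative phosphorylation was -0.22 with total counts, -0.22 with the replicate block and -0.13 with the length trend removed, that of ribosomal proteins -0.0696 and that of collagens 0.0853 with the trend removed. With 1 library left out, the median of the fetal and stress list was 0.89 to 1.06, that of the immediate early genes 0.48 to 0.98 and that of the collagens 0.14 to 0.33. The log2 fold change of Col3a1 ran from -0.0520 (without WT-TAC replicate 2) to 0.300 and that of Nmrk2 from -0.44 (without WT-TAC replicate 3) to 0.84. The cause of these shifts was not tested. Same-numbered WT-Sham and WT-TAC libraries had deviations that correlated by 0.161 and -0.00501. With 2 WT-TAC libraries these values are not independent, and nothing in them or in the labels pairs the samples, which share only a number. Depth limits genes near 1 CPM, where single counts move a fold change.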
